A study of Astyanax mexicanus with 6 samples.

Results

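Of the open chromatin regions found in the livers of cave and surface forms of Astyanax mexicanus, 31.7% lay on scaffolds that the genome assembly does not place on a chromosome. Peaks of the 3 deposited lists were merged wherever they overlapped or touched, which gave 110214 union regions. Members were chosen by sequence name alone: the 34884 regions (31.7%) whose sequence name begins with the prefix APWO02. The remaining 75330 regions lay on the 25 sequences named by a number and served for comparison. Every peak belonged to 1 of these 2 kinds of sequence. Each region was classed by the lists that held a peak in it. Beyond the presence of a peak, no measured value entered the choice by name. The classes and lengths of the members, and their positions along a scaffold, were not used in it. The part itself was chosen with earlier results of these data known.

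The species, a freshwater tetra, has blind cave forms, here from the Pachon and the Tinaja cave, and a sighted Surface form that lives in rivers. The study profiled liver by ATAC-seq, in which a transposase inserts adapters into accessible DNA. The labels give 2 Pachon cave, 2 Tinaja cave and 2 Surface liver samples, and 1 peak list per form is analysed here. They give no age, sex, diet or pooling of fish, so what each list represents beyond its form and tissue is not known.

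As background, open regions of the genome include promoters and enhancers, where nucleosomes are displaced and transcription factors bind. Unplaced scaffolds are stretches that were assembled but not anchored to a linkage group. They often carry repeated or recently duplicated sequence, where short reads are hard to assign to a single copy. A scaffold can nevertheless hold ordinary genes and regulatory elements. No gene, repeat or sequence feature is assigned to any region here.

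The scaffolds ranged from fragments with a lone region to sequences of several megabases. Regions were found on 2056 scaffolds, with a median of 5 regions each, and 300 scaffolds held a single region. The 61 scaffolds with at least 100 regions held 13699 regions, 39.3% of the members, and the 10 with the most held 14.8%. Scaffolds are cited below by the number that follows the prefix in their deposited name. Scaffold 27 had the most regions, 768, with 502 Pachon, 619 Tinaja and 515 Surface peaks, and its last region ended at 11639387 bp. It was followed by scaffold 139 with 637 regions and scaffold 46 with 571.

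Taking the end of the last region as the length of a sequence, a lower bound, the scaffolds spanned 371 Mb and the chromosomes 930 Mb. Pooled over all scaffolds, regions were denser, with 93.9 regions per Mb, against 81.0 per Mb on chromosomes pooled and 60.0 to 89.0 on single chromosomes. They covered 7.40% of the scaffold span, against 5.56% of the chromosome span. On the 72 scaffolds of at least 1 Mb, which made up 185 Mb of the span, the density of 78.3 regions per Mb was below that of the pooled chromosomes, and 5.54% was covered. The median gap between neighbouring regions was 5.12 kb on scaffolds and 6.06 kb on chromosomes. Scaffolds without a region are not counted, and the lower bound weighs most on short sequences, so both choices raise the density on scaffolds.

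The 3 lists placed nearly the same share of their peaks on scaffolds. Pachon had 22406 scaffold peaks, 30.9% of its list (Wilson 95% interval 30.6 to 31.2), and Tinaja had 26415, 31.2% (30.9 to 31.5). Surface had 22456 scaffold peaks, 30.6% of its list (30.3 to 30.9). These and all other intervals cover counting error only, since each form has 1 list and regions are not replicates. No test between forms, or between scaffolds and chromosomes, could therefore be made. The scaffold peaks covered 16.5 Mb in Pachon, 19.7 Mb in Tinaja and 17.4 Mb in Surface. In covered length, scaffolds took 34.4%, 34.6% and 33.5% of the Pachon, Tinaja and Surface lists, more than their share of peaks in each.

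Regions found in all 3 lists were less frequent on scaffolds than on any single chromosome. They numbered 13412, or 38.4% of the scaffold regions (37.9 to 39.0), against 43.3% of the chromosomal regions (43.0 to 43.7) and 41.8% of all regions of the series. The difference was -4.87 percentage points (Newcombe 95% interval -5.49 to -4.25). Single chromosomes ranged from 39.0% on chromosome 21 to 46.9% on chromosome 11, with a mean of 43.2% ± 1.64 (SD, n = 25 chromosomes). The difference became -2.87 points when only scaffolds with a last region at 1 Mb or beyond were kept, and their share of 40.4% then lay within the range of the chromosomes.

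The share that the all-3 class gave up was spread over the other 6 classes, each of which lay within the range of the single chromosomes. Tinaja-only regions numbered 6144, 17.6% of the scaffold regions, against 15.8% on chromosomes and 16.3% in the whole series. Regions of both caves only numbered 3947, 11.3%, against 10.3% on chromosomes and 10.6% in the series. Pachon-only regions numbered 2880, 8.26%, against 7.45% on chromosomes and 7.70% in the series. Pachon and Surface alone shared 1499 regions, 4.30%, against 3.78% on chromosomes and 3.94% in the series. For these 4 classes the interval of the difference lay above 0. For Surface-only regions it reached 0, with 4628 regions or 13.3% on scaffolds, against 12.9% on chromosomes and 13.0% in the series. It also reached 0 for Tinaja and Surface only, with 2374 regions or 6.81% on scaffolds, against 6.52% on chromosomes and 6.61% in the series.

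**Figure D1:**
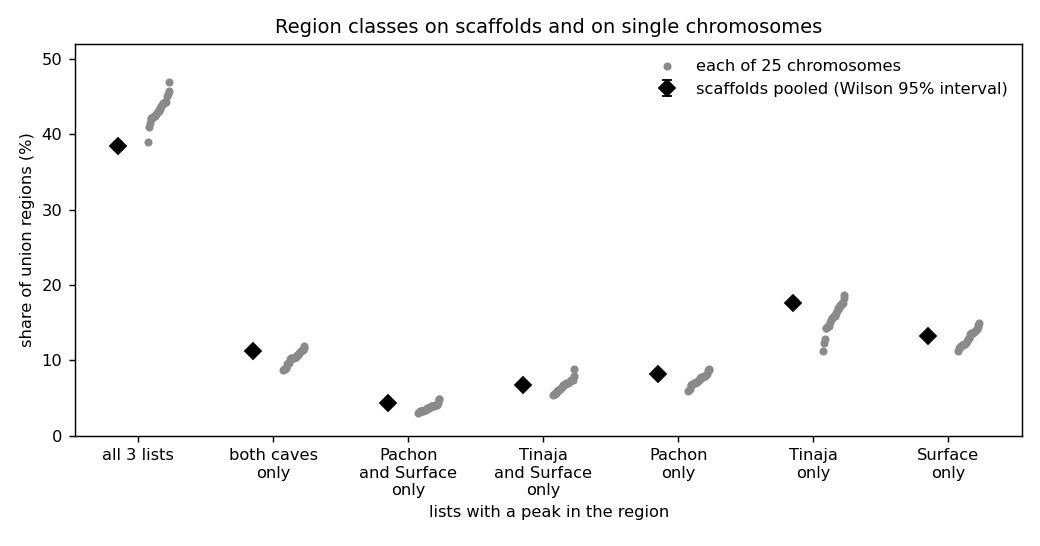
Share of union regions (%) in each of the 7 classes, with black diamonds for the pooled scaffolds (bars, Wilson 95% interval) and grey points for each of 25 chromosomes. The scaffolds' share of regions in all 3 lists, 38.4%, lies below every chromosome, and in the other 6 classes it lies among the chromosomes.

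Among regions held by exactly 2 lists, the partners of the pair were divided on scaffolds much as on chromosomes. Of 7820 such scaffold regions, 50.5% belonged to both caves (49.4 to 51.6), 30.4% to Tinaja and Surface and 19.2% to Pachon and Surface. On chromosomes the shares of 15527 regions were 50.03% (49.2 to 50.8), 31.6% and 18.3%. On single chromosomes the share of both caves ranged from 41.9% to 55.9%. It was above the scaffold value on 12 chromosomes and below it on 13. Among the 61 scaffolds with at least 100 regions, regions of both caves outnumbered each other pair on 53, regions of Tinaja and Surface on 7 and regions of Pachon and Surface on 0. The lead of both caves was not particular to scaffolds. No single chromosome had more regions of another pair, though on chromosome 11 Tinaja and Surface equalled both caves, at 8.85% of regions each. Tinaja, whose list is the longest, had the most peaks on 55 of these 61 scaffolds.

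Single-list regions made up 39.1% of the scaffold regions (38.6 to 39.6), against 36.1% of the chromosomal regions (35.7 to 36.4). Chromosome 21 was the only chromosome with a higher share than the scaffolds, by less than the rounding of 39.1%. Counted for each list, single-list regions were 13.2% of the Pachon regions on scaffolds (12.8 to 13.7), against 11.5% on chromosomes (11.2 to 11.8). For Tinaja they were 23.7% on scaffolds (23.2 to 24.3), against 20.8% on chromosomes (20.4 to 21.1). For Surface they were 21.1% on scaffolds (20.6 to 21.7), against 19.4% on chromosomes (19.02 to 19.7). For all 3 lists the share of regions of their own was thus higher on scaffolds.

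The overlap between lists in base pairs was lower on scaffolds for every pair. The Jaccard index divides the length in both lists by the length in either. For Pachon and Tinaja it was 0.549 on scaffolds and 0.583 on chromosomes, and 24 of 25 single chromosomes were above the scaffolds. For Pachon and Surface it was 0.495 on scaffolds and 0.509 on chromosomes, with 20 of 25 chromosomes above. For Tinaja and Surface it was 0.472 on scaffolds and 0.498 on chromosomes, with 24 of 25 above. Of Pachon scaffold peaks, 80.0% overlapped a Tinaja peak and 68.6% a Surface peak. Of Tinaja scaffold peaks, 67.2% met a peak in Pachon and 61.3% met one in Surface. Of Surface scaffold peaks, 68.1% met one in Pachon and 72.2% one in Tinaja. The order of the 3 pairs was the same on scaffolds and chromosomes, with the caves first.

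Broad peaks were far more frequent on scaffolds, while the middle of the width distribution differed little. The median scaffold peak was 515 bp wide in Pachon, 519 bp in Tinaja and 542 bp in Surface, against 498, 501 and 539 bp on chromosomes. The upper tail departed. Peaks of at least 2000 bp were 4.47% of Pachon scaffold peaks, against 1.80% on chromosomes. In Tinaja they were 4.61% on scaffolds, against 1.90% on chromosomes, and in Surface 4.94% on scaffolds, against 2.23% on chromosomes. No single chromosome reached the scaffold value in any list, the highest being 2.39%, 2.87% and 3.16%, each on chromosome 12.

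The gap widened with the width considered. Peaks of at least 5000 bp were 0.504% of Pachon scaffold peaks (113 peaks), against 0.0718% on chromosomes (36 peaks). In Tinaja they were 0.481% on scaffolds (127 peaks), against 0.105% on chromosomes (61 peaks). In Surface they were 0.606% on scaffolds (136 peaks), against 0.0844% on chromosomes (43 peaks). At 10000 bp or more, scaffolds held 25 Pachon, 26 Tinaja and 31 Surface peaks, and chromosomes held 3, 4 and 9. Peaks of at least 2000 bp made up 21.0% of the covered scaffold length in Pachon, 21.0% in Tinaja and 22.6% in Surface. On chromosomes these shares were 8.03%, 8.52% and 9.18%.

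**Figure D2:**
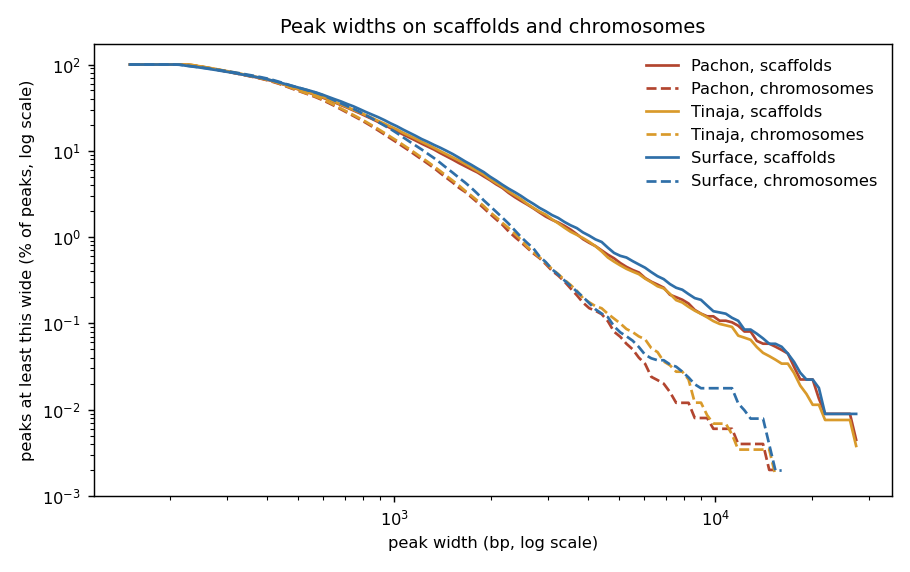
Percentage of peaks at least as wide as the value on the x axis (bp), both axes logarithmic, for scaffolds (solid) and chromosomes (dashed) in each list. The curves lie close near the median and have parted by 1000 bp, where scaffolds hold 17.4% to 19.8% and chromosomes 13.0% to 16.7% of peaks, and at 5000 bp the scaffold curves lie between 0.481% and 0.606%, against 0.0718% to 0.105% on chromosomes.

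Merged regions showed the same tail. Regions of at least 5000 bp numbered 194 on scaffolds, 0.556% of the members, against 74 on chromosomes, 0.0982%, a ratio of 5.66. They lay on 167 different scaffolds. Of the 194, 174 were held by all 3 lists, 7 by both caves only, 4 by Pachon and Surface only and 2 by Tinaja and Surface only. A further 2 were Tinaja-only and 5 Surface-only. The share in all 3 lists was 89.7% on scaffolds (84.6 to 93.2). On chromosomes it was 91.9% (83.4 to 96.2), 68 of the 74, so this sharing was not particular to scaffolds. In 93 of the 174 regions of all 3 lists (53.4%), each list by itself had at least 5000 bp under peaks. On chromosomes this held for 30 of 68 (44.1%).

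The excess of broad regions depended on the size of the scaffold. Of the regions on scaffolds whose last region ended below 20 kb, 2.71% were at least 5000 bp long. The share was 1.06% from 20 to under 100 kb, 0.788% from 100 to under 500 kb, 0.205% from 500 kb to under 1 Mb and 0.124% at 1 Mb or beyond. The last value, from 18 of 14532 regions, is 1.26 times that of the chromosomes, and the Wilson interval of 0.0784 to 0.196 includes the chromosomal 0.0982%. The covered share of the span ran in the same order, from 22.5% on the shortest scaffolds through 11.7%, 8.24% and 7.12% to 5.54% on the longest. A part of that order follows from the bound on length described above.

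Classes also varied with scaffold size, but in no steady order. Regions of all 3 lists were 37.8% below 20 kb (34.8 to 40.9), 33.7% from 20 to under 100 kb (32.5 to 34.9) and 37.6% from 100 to under 500 kb (36.6 to 38.6). They were 41.2% from 500 kb to under 1 Mb (39.6 to 42.9) and 40.4% at 1 Mb or beyond (39.6 to 41.2). Tinaja-only regions were most frequent where the all-3 class was lowest, with 20.6% from 20 to under 100 kb (19.6 to 21.6), against 15.4% to 17.5% in the other size classes. Both caves' share of 2-list regions stayed between 48.7% and 51.9% in the 5 size classes, with overlapping intervals. The part of read depth and of ambiguous read placement in these shares was not tested.

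**Figure D3:**
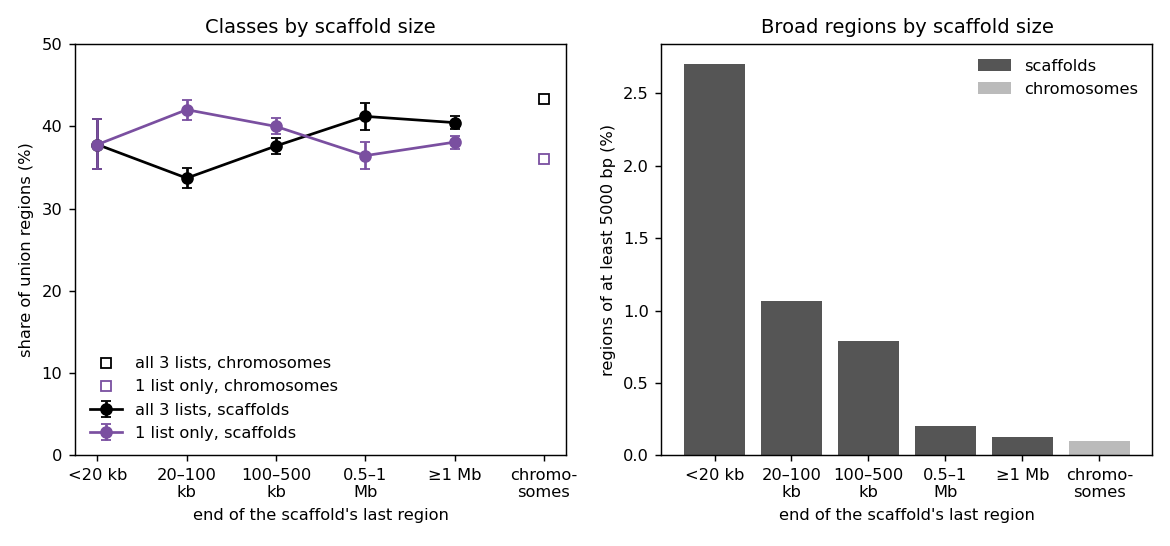
Scaffolds grouped by the end of their last region, from under 20 kb to 1 Mb or more, with the chromosomes at the right. The left panel gives the share of regions (%) in all 3 lists and in 1 list (bars, Wilson 95% interval), with the all-3 share lowest at 33.7% from 20 to under 100 kb. The right panel gives the share of regions of at least 5000 bp (%), from 2.71% on the shortest scaffolds to 0.124% on the longest, against 0.0982% on chromosomes.

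Sharing was lower on scaffolds at matched peak width as well. Of Pachon peaks of 500 to under 1000 bp, 74.4% lay in regions of all 3 lists on scaffolds (73.5 to 75.4), against 81.7% on chromosomes (81.1 to 82.3). For Tinaja peaks of that width the shares were 65.4% on scaffolds (64.4 to 66.4) and 74.4% on chromosomes (73.8 to 74.9). For Surface peaks they were 72.5% on scaffolds (71.5 to 73.4) and 77.7% on chromosomes (77.1 to 78.3). From 1000 to under 2000 bp the shares on scaffolds were 82.3% in Pachon, 74.6% in Tinaja and 82.8% in Surface, against 88.8%, 83.0% and 89.3% on chromosomes. At 5000 bp or more they were 93.8%, 94.5% and 93.4% on scaffolds, against 97.2%, 91.8% and 97.7% on chromosomes, with overlapping intervals. The share was lower on scaffolds in every width class below 5000 bp in all 3 lists. Intervals also overlapped for Pachon and Tinaja peaks of 2000 to under 5000 bp, and for Surface peaks under 300 bp.

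Where each list had exactly 1 peak, the widths of the peaks were close. In 12337 such scaffold regions the median width was 615 bp in Pachon, 655 bp in Tinaja and 658 bp in Surface. Taken as a log2 ratio, the width in Pachon over that in Surface had a median of -0.031 (order-statistic 95% interval -0.036 to -0.024), a ratio of 0.979. On chromosomes it was -0.067 (-0.072 to -0.062). For Tinaja over Surface it was 0.0070 on scaffolds (0.0030 to 0.011) and -0.0081 on chromosomes (-0.011 to -0.0050). The scaffold value became -0.0025 with peaks of at least 500 bp only, and 0 on scaffolds of at least 1 Mb. For Pachon over Tinaja it was -0.039 on scaffolds and -0.041 on chromosomes.

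Large differences in width were more frequent on scaffolds, though for Pachon narrower than Surface the intervals of scaffolds and chromosomes overlapped. Pachon peaks were at least 2-fold wider than Surface peaks in 567 scaffold regions, 4.60% (4.24 to 4.98), against 3.47% on chromosomes (3.27 to 3.68) and 3.79% over the whole series. They were at least 2-fold narrower in 723, 5.86% (5.46 to 6.29), against 5.47% on chromosomes (5.22 to 5.73) and 5.58% in the series. Tinaja peaks were at least 2-fold wider than Surface peaks in 807, 6.54% (6.12 to 6.99), against 4.73% on chromosomes (4.50 to 4.97) and 5.25% in the series. They were at least 2-fold narrower in 548, 4.44% (4.09 to 4.82), against 3.84% on chromosomes (3.63 to 4.07) and 4.02% in the series. Between the caves, Pachon peaks were at least 2-fold wider in 283 regions, 2.29%, and narrower in 557, 4.51%, against 1.66% and 3.66% in the series. The stretch common to the 3 peaks took a median of 0.683 of the region's length on scaffolds and 0.693 on chromosomes, and single chromosomes ranged from 0.673 to 0.712.

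The 5 longest scaffold regions were shared by all 3 lists, with nearly the same extent in each. Of regions of at least 10000 bp, all 3 lists held 34 of 37 on scaffolds and 8 of 8 on chromosomes. On scaffold 1498, positions 184964 to 213109, a region of 28146 bp was covered over 28064 bp in Pachon, 28141 bp in Tinaja and 28074 bp in Surface. Scaffold 1781 held a single region, from position 157 to 27623, with 27158 bp in Pachon, 27356 bp in Tinaja and 27467 bp in Surface. On scaffold 424, positions 126 to 21878, peaks covered 21702 bp in Pachon, 21667 bp in Tinaja and 21753 bp in Surface. Scaffold 228 (16336 to 37392) and scaffold 127 (190109 to 210620) followed with 21057 and 20512 bp. The regions on scaffolds 1498, 1781 and 228 were the last of their scaffold, and those on scaffolds 1781 and 424 began in its first 1000 bp.

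Regions that began in the first 1000 bp of a scaffold were broader and more often shared than those further in. Of the 340 regions that began in the first 1000 bp, 35 (10.3%) were at least 5000 bp long, against 0.330% of the 30621 regions beginning 20 kb or further in. All 3 lists held 51.8% of the regions near the start (46.5 to 57.0), against 38.7% of those 20 kb or further in (38.1 to 39.2). The median length was 873 bp near the start and 548 bp at 20 kb or further in. Sharing near the start was not compared at matched length or scaffold size. The higher sharing did not extend beyond the first 1000 bp: the share was 34.8% from 1000 to under 5000 bp (31.6 to 38.2) and 35.6% from 5000 to under 20000 bp (33.9 to 37.3). On 31 scaffolds regions covered at least 90% of the length up to the last region, and on 101 at least 50%. These 101 scaffolds had a median end of 6.59 kb and held 205 regions. By list, at least 50% of the length was under peaks on 66 scaffolds in Pachon, 77 in Tinaja and 64 in Surface. Without the 101 scaffolds the share of regions of at least 5000 bp was 0.435%. These scaffolds were picked by covered length, so a lower share follows in part from the picking.

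In the longest regions of both caves only, the lengths under peaks were very unequal in the first and closer in the others. The longest of both caves only, on scaffold 995 at positions 14360 to 22167, had a Pachon peak of 537 bp and a Tinaja peak of 7808 bp. The second, on scaffold 1247 at 47809 to 54252, was covered over 6444 bp in Pachon and 4335 bp in Tinaja. A region at the start of scaffold 2340, positions 157 to 6309, had 6153 bp in Pachon and 5628 bp in Tinaja, and none in Surface. Scaffold 1602 (13937 to 19953) had 4519 bp in Pachon and 6017 bp in Tinaja, and scaffold 67 (209180 to 214844) had 5665 bp in Pachon and 4944 bp in Tinaja. Of these 5 regions, only those of scaffolds 1247 and 2340 stayed with both caves when peaks had to overlap by 50% of each other.

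Among the longest regions shared by Surface and 1 cave, some had peaks of nearly equal and some of very unequal length. On scaffold 2080, positions 72121 to 79204, a region without Tinaja had 7066 bp in Pachon and 7060 bp in Surface. A neighbouring region of 2176 bp at 69098 to 71273 also lacked Tinaja, with 2047 bp in Pachon and 2176 bp in Surface. The Tinaja list was not absent from this scaffold, where it had 48 peaks, against 41 in Pachon and 45 in Surface. The longest region held by exactly Tinaja and Surface lay on scaffold 714 at 402925 to 415035, with 9051 bp in 3 Tinaja peaks and 12111 bp in a Surface peak. The other 4 of each class were 4276 to 6735 bp long, and several were very unequal. Scaffold 430 had 1873 bp in Pachon and 6735 bp in Surface, and scaffold 650 had 1232 bp in Pachon and 4915 bp in Surface. Scaffold 1700 had 876 bp in Tinaja and 4495 bp in Surface, while scaffold 1057 had 4276 bp in Tinaja and 1341 bp in Surface.

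On scaffolds, the few longest regions of a single list were longer in Surface than in the caves, while on chromosomes the longest was Tinaja-only. The 5 longest Pachon-only regions were 2827 to 4772 bp, led by scaffold 99 at positions 53174 to 57945. The 5 longest Tinaja-only regions were 4068 to 5214 bp, led by scaffold 1711 at 9141 to 14354. The 5 longest Surface-only regions were 5512 to 16960 bp. The bulk of the 3 classes was closer: the median length on scaffolds was 337 bp for Pachon only, 353 bp for Tinaja only and 355 bp for Surface only. The 99th percentiles there were 1632, 1938 and 1969 bp. On chromosomes the longest region was 3084 bp for Pachon only, 4501 bp for Tinaja only and 4158 bp for Surface only. The 99th percentiles on chromosomes, 1320, 1388 and 1441 bp, had the same order as on scaffolds.

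The 2 longest Surface-only regions lay on short scaffolds with few or no other regions. On scaffold 670 a Surface peak of 16960 bp ran from position 52 to 17011. The next region, at 17137 to 20528, had 3351 bp in Pachon, 3390 bp in Tinaja and 794 bp in Surface. With peaks up to 200 bp apart merged, both became 1 region of all 3 lists. On scaffold 2157 a Surface peak of 11023 bp, from position 40 to 11062, was the sole peak of any list. Scaffolds 956 (45094 to 54702, 9609 bp), 2262 (70444 to 78828, 8385 bp) and 2267 (20858 to 26369, 5512 bp) carried peaks of all 3 lists elsewhere.

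**Figure D4:**
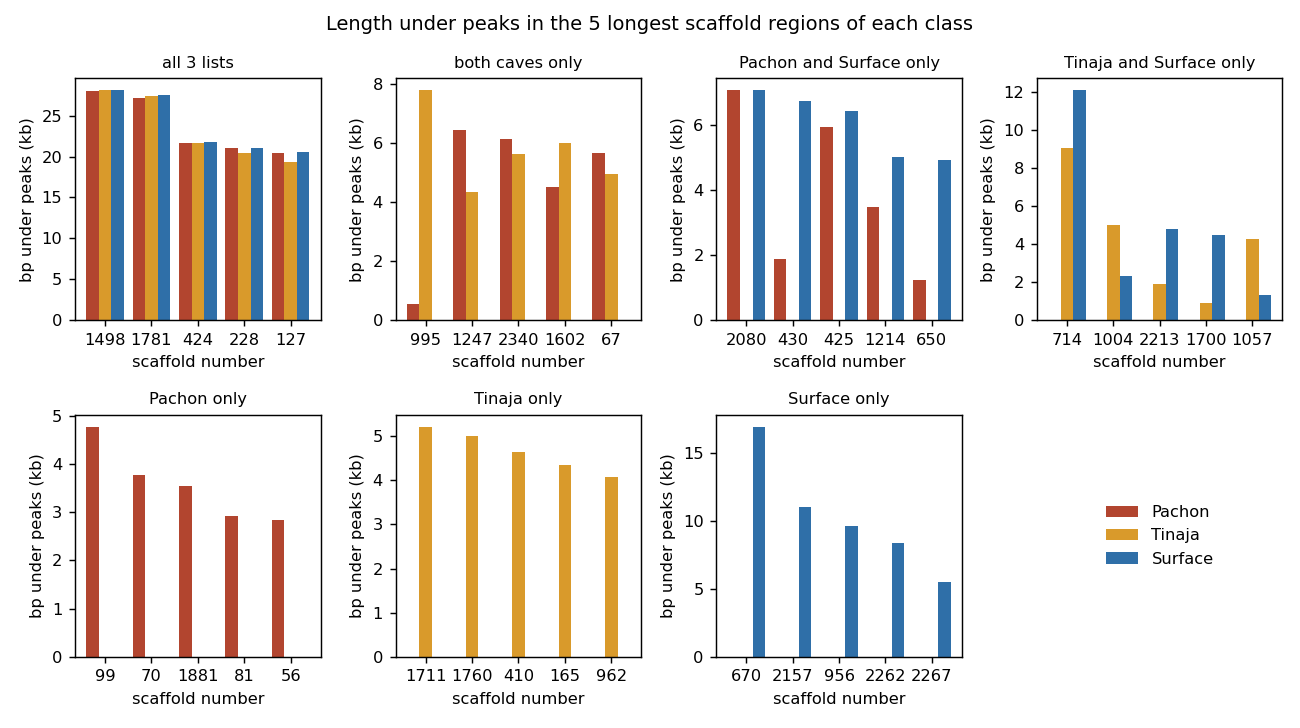
Length under peaks (kb) of Pachon, Tinaja and Surface, in that order, in the 5 longest scaffold regions of each class, labelled by scaffold number; the y axes differ between panels. The regions of all 3 lists have bars of nearly equal height, the longest Surface-only region reaches 16960 bp, and the longest Pachon-only and Tinaja-only regions reach 4772 and 5214 bp.

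Some scaffolds carried no peak of a list at all. All 3 lists had a peak on 1667 scaffolds (81.1%). Both caves and not Surface had one on 120, Pachon and Surface only on 39 and Tinaja and Surface only on 67. A single list had one on 163 scaffolds, which was Pachon on 38, Tinaja on 80 and Surface on 45. These scaffolds were small: those without a peak of all lists held at most 8 regions each. Those with peaks of Pachon alone held 44 regions in all, those of Tinaja alone 123 and those of Surface alone 64. Just 1 region was present on 34 of the 38, 51 of the 80 and 33 of the 45. Of the 1667 scaffolds with peaks of all 3 lists, 117 held just 1 region. Pachon lacked a peak on 192 scaffolds, Tinaja on 122 and Surface on 238.

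On 23 scaffolds with at least 5 regions, at least 1 list had no peak. Both caves and not Surface held 10 of them, Tinaja and Surface 7, Pachon and Surface 4, and Tinaja alone and Surface alone 1 each. The one with the most regions was scaffold 2307, with 1 Pachon, 8 Tinaja and 0 Surface peaks. Scaffold 1356 had 5 Tinaja peaks and no other, and scaffold 751 had 5 Surface peaks and no other. With so few peaks each, these counts describe the lists and do not show that the chromatin was closed.

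Scaffolds of the larger kind differed widely in their classes. Among the 347 scaffolds with at least 20 regions, the share in all 3 lists had a median of 38.7%, with 23.3% at the 10th and 52% at the 90th percentile, and ran from 5% to 69.6%. Among the 61 with at least 100 regions it still ran from 19% to 57.7%, with a mean of 39.9% ± 8.04 (SD, n = 61 scaffolds). The Tinaja-only share of those 61 ran from 2.83% to 38.9%, the Surface-only share from 3.17% to 21.8% and the Pachon-only share from 1.92% to 18.1%. The 10 scaffolds with the most regions were more alike. Their all-3 share lay between 41.3% and 47.0% on 9 of them and was 32.0% on scaffold 48. Counting error shrinks as the number of regions on a scaffold grows, so part of the narrower spread follows from the larger counts.

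The scaffolds with the highest share of a class stood far from the pooled value. On scaffold 344, 16 of 23 regions were in all 3 lists (69.6%, 49.1 to 84.4). On scaffold 2355, 10 of 22 regions were of both caves only (45.5%, 26.9 to 65.3), and the peaks numbered 18 in Pachon, 16 in Tinaja and 2 in Surface. On scaffold 1324, 20 of 34 were Tinaja-only (58.8%, 42.2 to 73.6), with 11 Pachon, 29 Tinaja and 9 Surface peaks. On scaffold 523, 8 of 20 were Pachon-only (40.0%, 21.9 to 61.3). On scaffold 2073, 11 of 20 were Surface-only (55.0%, 34.2 to 74.2), with 6 Pachon, 4 Tinaja and 17 Surface peaks. The same scaffold ranked second for regions of Pachon and Surface only, with 4 of 20. These scaffolds were picked as the extremes of 347, so their intervals do not account for the picking.

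In every class, the next region was of the same class more often than the share of that class, on scaffolds and on chromosomes. The region after a Surface-only region was again Surface-only in 20.05% of scaffold cases, where the class made up 13.3% of regions. On chromosomes this was 17.7%, with a class share of 12.9%. After a Tinaja-only region the next was Tinaja-only in 27.3% on scaffolds (class share 17.6%) and in 24.2% on chromosomes (class share 15.8%). After a Pachon-only region it was Pachon-only in 14.8% on scaffolds (class share 8.26%) and in 11.3% on chromosomes (class share 7.45%). After a region of both caves only it was again so in 17.6% on scaffolds (class share 11.3%) and in 15.5% on chromosomes (class share 10.3%). For regions of all 3 lists the shares were 45.1% on scaffolds (class share 38.4%) and 49.3% on chromosomes (class share 43.3%). For Pachon and Surface only they were 8.13% on scaffolds (class share 4.30%) and 5.45% on chromosomes (class share 3.78%). For Tinaja and Surface only they were 9.14% on scaffolds (class share 6.81%) and 8.20% on chromosomes (class share 6.52%).

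The longest run of Surface-only regions lay on scaffold 430, where 11 followed each other from position 26824 to 72141, over 45.3 kb. Before it lay the region at 17297 to 24031, with 1873 bp in Pachon, 0 in Tinaja and 6735 bp in Surface. Tinaja thus had no peak in 12 consecutive regions over 54.8 kb. The 11 peaks of Surface were 304 to 2324 bp wide, and the widest lay at 30059 to 32382. Beyond the run the caves were present again, first in a region of all 3 lists at 72569 to 73089 and then in 3 regions of both caves only between 78680 and 87303. At the end of the scaffold, a region at 107049 to 116601 had 4254 bp in Pachon, 5518 bp in Tinaja and 9553 bp in Surface. The run is a single stretch on a scaffold of 25 regions, picked as the longest. On chromosomes the longest Surface-only run was 6 regions, and the longest without Tinaja was 10. The longest run without Pachon was 13 regions on scaffolds, on scaffold 2138, and 17 on chromosomes.

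The longest run without Surface lay on scaffold 137, where 22 consecutive regions from position 704608 to 1159965, over 455 kb, had cave peaks alone. In its second part, from 1044319 to 1159438, 7 regions in a row were Tinaja-only, and no scaffold had a longer Tinaja-only run, though 4 runs in all reached that length. On chromosomes the longest Tinaja-only run was 13 regions, and the longest without Surface 18. The 7 peaks were 306 to 679 bp wide. Over the whole of scaffold 137, 45 of 113 regions (39.8%) were in all 3 lists and 11 were Surface-only. The longest run of both caves only was 6 regions over 38.2 kb, on scaffold 2315 at positions 53107 to 91340, with 281 to 471 bp under peaks in Pachon and 312 to 690 bp in Tinaja. The longest Pachon-only run was 5 regions over 104 kb, on scaffold 81 at 1773409 to 1877401. Chromosomes had as long a run of both caves only, 6 regions, and a longer Pachon-only run, also 6 regions.

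**Figure D5:**
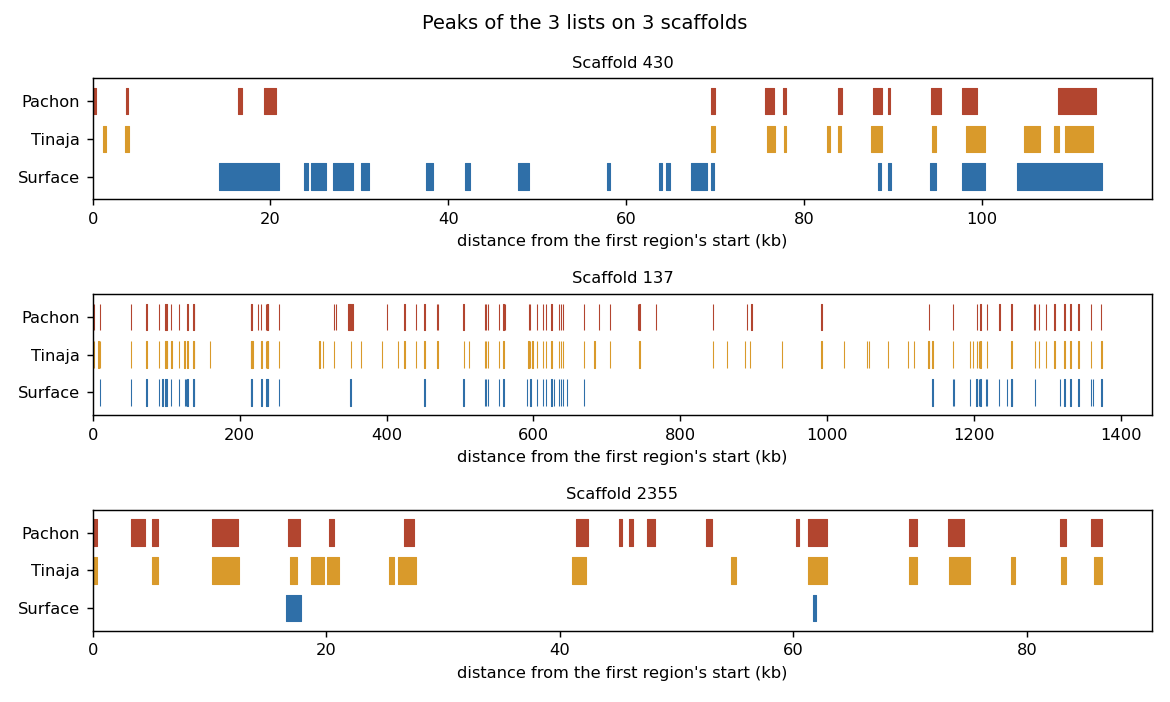
Peaks of Pachon, Tinaja and Surface (rows, top to bottom) along scaffolds 430, 137 and 2355, by distance from the start of the first region (kb). On scaffold 430 the 11 Surface-only regions span 45.3 kb with no cave peak, on scaffold 137 a stretch of 455 kb has cave peaks alone, and scaffold 2355 has 18 Pachon, 16 Tinaja and 2 Surface peaks.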

How the data were processed

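Each form has 1 deposited peak list, recorded under its replicate 1. The deposited lists held 6 columns with no header. Columns 2 and 3 gave the start and end of each peak, and the deposited score was 0 for every peak. Per the submitters' processing notes, Bowtie2, SAMtools, MACS2 and bcl2fastq 2.20 were used. Not given in the sources used here were settings, thresholds, duplicate and multi-mapping handling, any Tn5 shift, the build and pooling of replicates. Placement of reads with several matches affects peaks in repeated sequence, and depth affects peak number and width. Depth is unknown here, as the lists hold no counts.

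Positions are those of the deposited lists, written 1-based. No genome or annotation of their build was used, so no sequence, gene or motif is given. Overlapping or touching peaks were merged, and regions were classed by list. Intervals are Wilson, Newcombe and order-statistic 95% intervals. With 1 list per form, no test was made. Regions named are the 5 longest of each class, the 10 scaffolds with most regions, the 3 with the highest share of each class among those with at least 20 regions, and the longest runs. Runs missing a list, near-start regions and scaffolds lacking a list were described after their values were seen. Members, lists and measures were chosen with earlier results of these data known. Scripts were checked on simulated data. Alternatives are given in the closing section. The software was scipy 1.17.1, pandas 2.3.3 and numpy 2.4.6 under Python 3.11.15.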

Additional observations from a re-analysis of the deposited data

Results flagged for a closer look

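Set against Surface, Pachon and Tinaja differed in opposite directions on scaffolds in 4 measures, judged by sign alone. With 1 list per form this was not tested. The number of scaffold peaks differed from Surface by -50 in Pachon and by 3959 in Tinaja, ratios of 0.998 and 1.18. Pachon and Surface were thus nearly equal in peak number. In covered length, Pachon differed from Surface by -890427 bp, while Tinaja differed by 2277935 bp. Chromosomes showed the same signs in both measures. There Pachon differed from Surface by -809 peaks and -2926132 bp of covered length, and Tinaja by 7314 peaks and 2726882 bp. Peaks of at least 2000 bp on scaffolds differed in number by -108 in Pachon and by 107 in Tinaja. Peak numbers and covered length are totals, and the Tinaja list is the longest. As shares, both caves lay on the same side of Surface. Scaffolds took 30.9% of Pachon, 31.2% of Tinaja and 30.6% of Surface peaks, and 34.4%, 34.6% and 33.5% of covered length. Peaks of at least 2000 bp were 4.47%, 4.61% and 4.94% of scaffold peaks. Where each list had 1 peak, the median log2 width ratio to Surface was -0.031 in Pachon and 0.0070 in Tinaja.

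For Tinaja over Surface, scaffolds and chromosomes went opposite ways in 2 measures, likewise untested. The ratio of the numbers of peaks of at least 2000 bp was 1.10 on scaffolds and 0.974 on chromosomes. This ratio is of totals, and the Tinaja list is the longer. As a share of peaks, Tinaja was below Surface in both places. The shares were 4.61% against 4.94% on scaffolds, and 1.90% against 2.23% on chromosomes. The median log2 width ratio was 0.0070 on scaffolds and -0.0081 on chromosomes. The scaffold value turned to -0.0025 with peaks of at least 500 bp, and to 0 on scaffolds with at least 20 regions and on those of at least 1 Mb. In 2 further measures both went the same way: the ratio of peak numbers was 1.18 on scaffolds and 1.14 on chromosomes, and that of covered length 1.13 on scaffolds and 1.08 on chromosomes.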

How the results depend on the processing

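No paired analysis was possible because each form has 1 list and no result comes from a test. Leaving out a replicate was not possible for the same reason. How peaks were joined does not enter the Jaccard index. The settings without scaffolds covered to 50% and on scaffolds of at least 1 Mb were chosen after seeing the data, and causes of the changes were not tested. Scaffolds covered to 50% were picked by covered length, so leaving them out by itself favours a lower share of regions of at least 5000 bp. The count of classes outside the range of the chromosomes, 1, became 2 under a reciprocal overlap of 50%, and 0 on scaffolds with at least 20 regions and on those of at least 1 Mb. The all-3 difference of -4.87 points became -5.58, -3.36 and -2.87 in those settings. Both caves' 50.5% of 2-list regions became 52.2% under reciprocal overlap, 48.1% with peaks of at least 500 bp and 46.3% with equal numbers of widest peaks. The single-list share of 39.1% became 38.5% with peaks within 200 bp merged, 52.3% under reciprocal overlap, 39.9% with peaks of at least 500 bp, and 38.1% both on scaffolds with at least 20 regions and on those of at least 1 Mb. The 0.556% of regions of at least 5000 bp became 0.469% under reciprocal overlap, 1.03% with peaks of at least 500 bp, 0.310% on scaffolds with at least 20 regions, 0.460% without regions starting in the first 1000 bp, 0.435% without scaffolds covered to 50% and 0.124% on scaffolds of at least 1 Mb. The caves' Jaccard index of 0.549 became 0.545 with peaks of at least 500 bp, 0.551 with equal numbers, 0.550 on scaffolds with at least 20 regions, 0.548 without scaffold 27, 0.543 without regions at the start, 0.541 without covered scaffolds and 0.544 at 1 Mb. The log2 width ratio of Pachon over Surface became -0.048 on scaffolds with at least 20 regions and -0.052 at 1 Mb. That of Tinaja over Surface became -0.0025 with peaks of at least 500 bp, which reversed it, 0.012 with equal numbers, and 0 in the settings of 20 regions and of 1 Mb. That of Pachon over Tinaja became -0.027 with peaks of at least 500 bp and -0.047 with equal numbers. The 163 scaffolds with peaks of 1 list became 0 in the settings of 20 regions and of 1 Mb. For 20 regions this was fixed in advance, since none of the 163 held more than 5 regions. Of 35 named regions, 34 kept their class with peaks within 200 bp merged, 25 under reciprocal overlap, 35 with peaks of at least 500 bp, 35 with equal numbers and 30 without regions at the start, which drops the other 5.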
